A study of Mus musculus with 5 samples.

Results

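The unfolded protein response is the programme by which a cell matches the folding capacity of its endoplasmic reticulum (ER) to the load of secreted protein. Its sensors sit in the ER membrane: IRE1, which splices the Xbp1 messenger RNA, PERK, which slows translation and favours the making of ATF4, and ATF6, which is cut in the Golgi to release a transcription factor. Secretory epithelium such as the surfactant-making alveolar type 2 cells of the lung depends on this machinery. NKX2-1 is a homeodomain factor that lung epithelial cells need for their identity, and its binding was examined here at 9 genes of this response: the sensor genes Atf6, Ern1, Ern2 and Eif2ak3, the effector genes Xbp1 and Atf4, the related factor genes Creb3l1 and Creb3l2, and the chaperone gene Hspa5. Binding was read from peaks whose summit lay inside a gene or within 20 kb of it. Peaks of different antibodies that shared at least 1 bp were joined into a region, and a region was graded by how many of the antibodies had contributed to it. The 9 genes held 67 of the 68919 regions of the genome, and none of the 67 belonged to more than 1 of the 9 genes. The genes had been picked with these binding values known, in particular that of Atf6, so their counts and folds are a description and carry no test.

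The data come from chromatin immunoprecipitation and sequencing of whole lungs of wild-type mice labelled P10, read as postnatal day 10. The lungs were perfused, fixed with formalin and broken into nuclei, and sonicated chromatin was pooled before immunoprecipitation. Strain, sex and number of mice are not given in the labels used here. Each of 4 antibodies against NKX2-1 (Abcam133737, Millipore07-601, Abcam76013 and Abcam133638) was used for 1 library, and 1 input library served all of them. Nothing in the labels says that the libraries came from separate animals. No value below has a replicate error, and the 4 values of a region are set side by side. The libraries held 43031331 to 46547989 tags after the removal of duplicates, and the shallower input held 10653749. The lists held 40877, 57763, 41296 and 57891 peaks in the order above. Fold enrichment is the authors' value, the pileup of tags at a summit over the local background. In whole lungs, binding in few cells and weak binding in many cells cannot be told apart, nor can the cell type in which a region was bound. The data hold no expression values, so the presence of alveolar cells was not checked by markers.

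The promoters of the listed genes show where the peaks stood against known control elements. RefSeq (build GRCm38.p6, the same coordinates as mm10) gave a window of 300 bases, 250 before to 50 after the transcription start, for Hspa5, Creb3l2, Ern1, Eif2ak3, Atf4 and Xbp1, but not for Atf6, Ern2 and Creb3l1. Motifs were searched on both strands as exact matches, so inexact copies were not counted. Those of the NKX2-1 class were CAAGTG and CTCAAG, which can overlap each other by 4 bases. Those of the stress response were the ER stress response element (CCAAT and CCACG with 9 bases between them, bound by ATF6 together with NF-Y), the unfolded protein response element TGACGTGG, and TGATGNAA, the C/EBP-ATF response element. A match describes letters in a window and is not a bound site. The 250 bases before the start are printed, 5′ to 3′ on the strand of the gene, in lower case with motif matches in capitals. Hspa5 is shown for its stress element, Creb3l2 for an NKX2-1 class match under a region of all 4 antibodies, Ern1 for such a region without a match, and Xbp1 for a match without a region.
Hspa5, chr2:34771840-34772089, plus strand: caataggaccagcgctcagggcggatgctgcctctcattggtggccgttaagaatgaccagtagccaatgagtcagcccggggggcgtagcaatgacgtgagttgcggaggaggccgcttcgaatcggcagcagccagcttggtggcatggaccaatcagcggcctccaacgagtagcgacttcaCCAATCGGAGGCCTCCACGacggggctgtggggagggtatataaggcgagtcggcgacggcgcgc
Creb3l2, chr6:37442149-37442398, minus strand: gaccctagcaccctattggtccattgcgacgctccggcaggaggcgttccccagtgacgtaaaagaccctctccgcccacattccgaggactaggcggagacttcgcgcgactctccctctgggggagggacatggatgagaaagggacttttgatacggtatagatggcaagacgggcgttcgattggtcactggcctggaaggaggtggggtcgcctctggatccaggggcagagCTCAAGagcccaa
Ern1, chr11:106487797-106488046, minus strand: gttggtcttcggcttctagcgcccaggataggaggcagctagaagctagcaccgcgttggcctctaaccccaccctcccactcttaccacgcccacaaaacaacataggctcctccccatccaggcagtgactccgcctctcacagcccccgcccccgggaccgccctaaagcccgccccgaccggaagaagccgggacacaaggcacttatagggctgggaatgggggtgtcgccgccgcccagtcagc
Xbp1, chr11:5520391-5520640, plus strand: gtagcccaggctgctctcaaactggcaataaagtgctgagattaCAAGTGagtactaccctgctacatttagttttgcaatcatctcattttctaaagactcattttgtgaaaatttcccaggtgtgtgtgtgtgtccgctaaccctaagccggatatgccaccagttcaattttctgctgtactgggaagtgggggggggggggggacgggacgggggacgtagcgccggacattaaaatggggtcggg

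Of the 9 genes, 8 had a region called with all 4 antibodies (a four-antibody region), which 64.8% of the 21631 protein-coding RefSeq genes on chromosomes 1 to 19 and X had within the same distance. Ern2 was the exception. The 9 genes had a median length of 41.8 kb, against 17.3 kb over all genes. Shares of genes here and below were not adjusted for length, for the density of genes around them or for expression. Of the 67 regions, 28 (41.8%) were four-antibody regions, against 45.9% of all regions of the genome, 9 had 3 antibodies, 10 had 2 and 20 had 1. The exact 95% binomial interval of the 41.8% was 29.8% to 54.5%. It covers counting error only and takes regions as independent, although many share a gene. All 20 regions with 1 antibody came from the longer lists, 12 from Millipore07-601 and 8 from Abcam133638, which gave 44.4% and 43.5% of all one-antibody regions of the genome.

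Most of the 28 four-antibody regions had a mean fold under 10, and a few were far stronger. Their median of the mean fold over the 4 libraries was 6.65, against 7.14 for all 31606 four-antibody regions, and 7 of the 28 (25.0%) reached a mean fold of 10, against 26.6%. Those 7 lay at Atf6, Ern1, Eif2ak3 and Creb3l2, with 4 of them at Creb3l2. The best region of a gene reached a mean fold of 10 at 4 of the 9 genes, against 30.7% of protein-coding genes. Over the 8 genes the best mean fold had a median of 9.99 and over all 14023 genes with such a region 9.65.

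**Figure D1:**
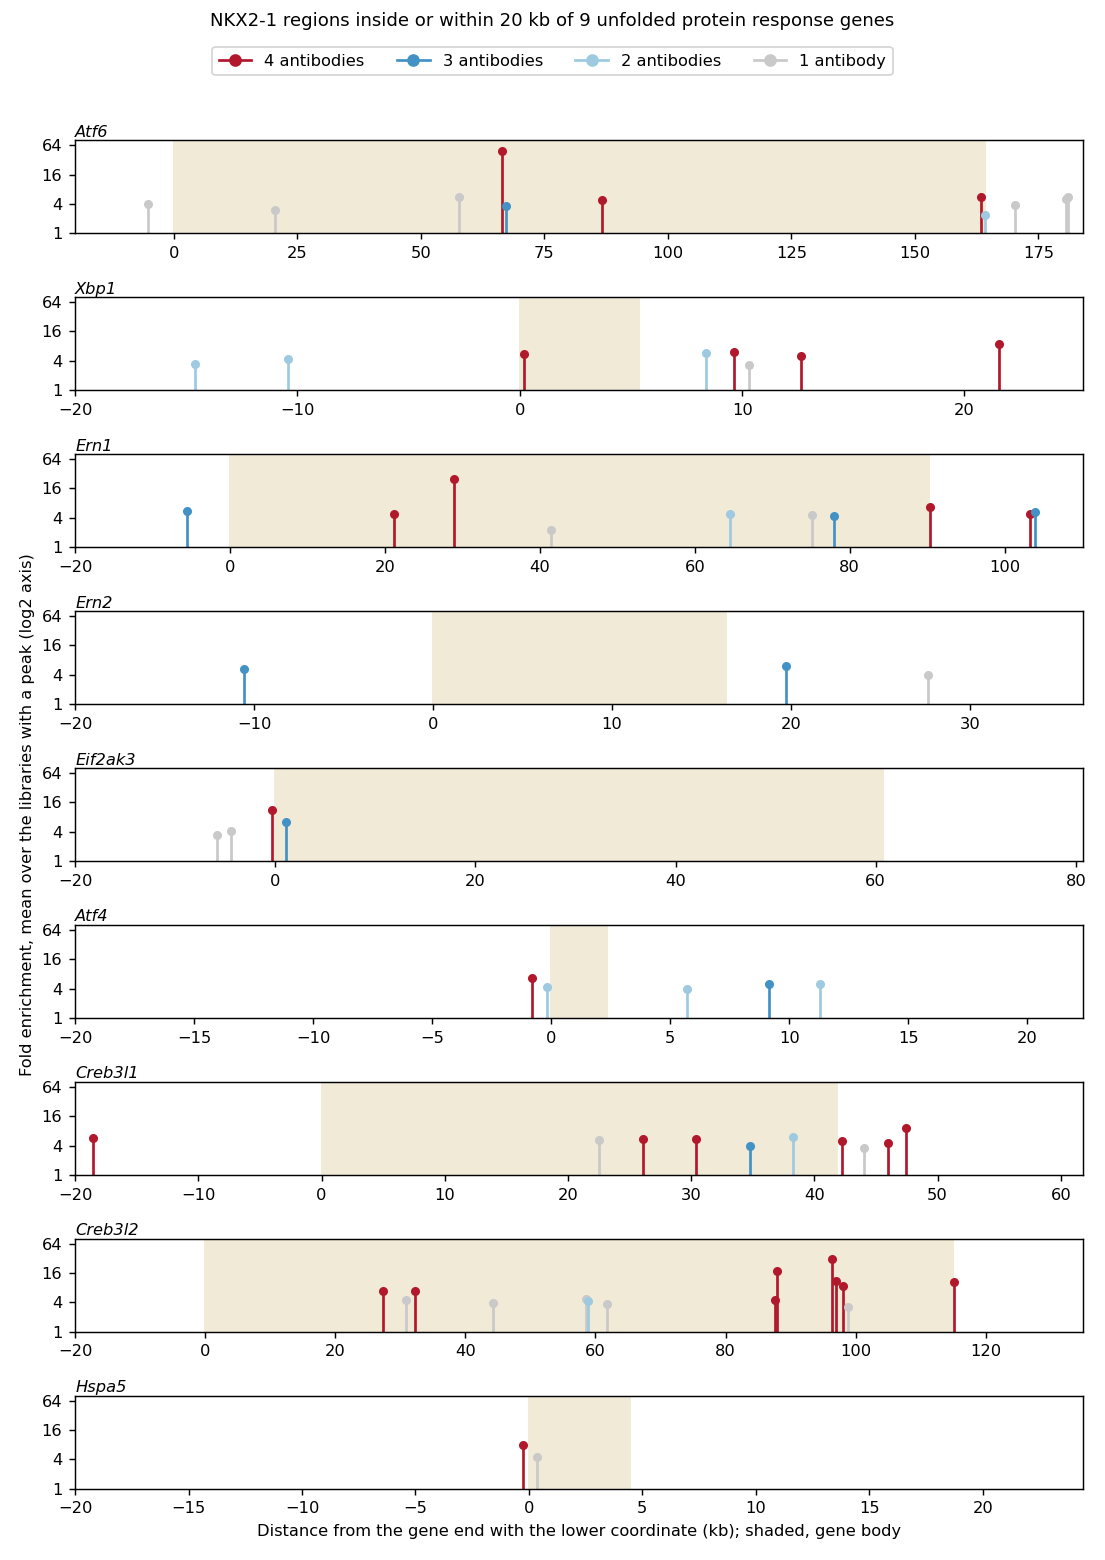
Regions at each gene, with distance from the gene end of lower coordinate in kb on the x axis, gene bodies shaded, and fold enrichment (mean over the libraries with a peak) on a log2 y axis. Colours give the number of antibodies. Atf6 and Ern1 each have 1 region far above their others inside the gene body, Creb3l2 has several strong ones, and Ern2 has no four-antibody region.

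Atf6, the gene of the sensor that becomes a transcription factor, carried the strongest of the 67 regions (chr1:170770486-170771157). Its fold was 45.7 with Abcam133737, 57.5 with Millipore07-601, 42.8 with Abcam76013 and 52.4 with Abcam133638, from pileups of 221, 271, 210 and 242 tags. The libraries of both longer lists were above those of both shorter lists, as at 20 of the 28 regions (71.4%) and at 77.7% of all four-antibody regions. The region lay inside the gene, 66.4 kb from its nearer end, and the nearest other protein-coding gene was 79.7 kb away. Its 4 summits fell within 12 bp of each other, against a median spread of 43.5 bp over the 28 regions and 46.0 bp over all. The local background under it was the genome-wide value in all 4 libraries (3.64 to 3.93 tags). That value is computed from the depth and fragment length of a library, not measured at the region. It served 67.0% of the peaks in the 28 regions and 62.9% of those in all four-antibody regions. Among four-antibody regions of the genome it stood at place 2 by mean fold, at places 2, 3, 4 and 2 by fold within each library, and at place 7 by mean pileup per 1000000 filtered tags.

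By the best mean fold within 20 kb, Slc26a9, a chloride transporter gene, was the gene above Atf6 (51.05 against 49.61, a difference of 1.44). Below it came Mycbp and the predicted gene Gm31309, which share a region at 48.21. Neither order held in all 4 libraries. Slc26a9 was above Atf6, and Atf6 above the region of Mycbp, in 3 of the 4, and both were turned round with the fourth: with Abcam76013 the fold was 42.6 at Slc26a9, 42.8 at Atf6 and 46.3 at the region of Mycbp. The fold at Atf6 had an SD of 6.63 over the 4 antibodies. That spread includes differences between libraries also seen at Slc26a9 (42.6 to 60.3), so it is not the error of the difference of 1.44.

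The rest of the Atf6 locus was weakly marked. The gene is 164 kb long and held 11 regions with its flanks, of which 6 had 1 antibody. The other four-antibody regions had mean folds of 4.93, at 20.3 kb from the strong summit, and 5.65, at 0.703 kb inside the gene's end of higher coordinate. The strong region was 8.78-fold above the next of the locus, the largest such ratio among the listed genes with at least 2 four-antibody regions (1.41 to 3.81 in the others). A region of Millipore07-601 and Abcam133638 spanned that end of the gene at folds of 2.67 and 2.06. Its pileups were 34 and 27 tags over a raised local background of 12.1 and 12.6 tags. At the region 0.703 kb inside the gene, both libraries had 29 tags, over 3.73 and 3.64. Counted per 100 kb of gene and flanks, Atf6 had 1.47 four-antibody regions, against a median of 1.80 over all genes. Outside the 20 kb, the closest four-antibody region was 91.1 kb from Atf6 (mean fold 5.02).

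Ern1 encodes IRE1 alpha, the sensor whose nuclease activates Xbp1. It had 10 regions, 4 of them with all antibodies. The strongest (chr11:106426382-106426942) lay inside the gene, 29.0 kb from its nearer end, with folds of 20.4, 28.8, 21.7 and 30.6 in the order Abcam133737, Millipore07-601, Abcam76013 and Abcam133638. Its pileups were 98, 135, 106 and 141 tags, and it stood at place 622 of the genome. A best mean fold of at least this size (25.4) was found for 3.25% of protein-coding genes. A weaker four-antibody region lay at the start of Ern1, with folds of 6.18, 8.04, 4.47 and 7.97 and summits 139 to 176 bp upstream of the start, in the printed sequence. The peaks of Millipore07-601 and Abcam133638 crossed the start, and those of the other antibodies ended upstream of it. No motif searched here matched in that window. The other pair of four-antibody regions had mean folds of 4.85 and 4.75, the latter 13.1 kb beyond the gene and 1.26 kb from Tex2.

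Ern2 encodes IRE1 beta, the form known from mucus-secreting epithelium, and differed from Ern1 in this count. It had 3 regions, none of them inside the gene. A region 3.41 kb away (chr7:122189511-122189771) had folds of 5.92, 5.48 and 6.47 and lacked Abcam133737. Another, 10.5 kb away and 0.086 kb from Plk1, had folds of 4.53, 5.29 and 5.60 and lacked Abcam76013. Each missing antibody is one of those with the shorter lists. With 3 of 4 antibodies asked for, all 9 genes counted, against 69.6% of all genes. The nearest four-antibody region stood 36.9 kb from Ern2 at a mean fold of 10.6.

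Eif2ak3 encodes PERK, the sensor that phosphorylates the initiation factor eIF2 alpha. Its 1 four-antibody region spanned the start of the gene (chr6:70843961-70844764), with summits 303 to 347 bp upstream of the start. The fold was 11.2 with Abcam133737, 17.5 with Millipore07-601, 6.58 with Abcam76013 and 8.82 with Abcam133638. This was the widest spread relative to its mean among the strongest regions of the 8 genes (SD 4.69 around 11.0, n = 4 antibodies). The pileups per 1000000 filtered tags, 1.27, 2.02, 1.36 and 1.83, gave another order. The local background was 4.37 and 4.04 tags with Abcam133737 and Millipore07-601, from pileups of 59 and 87 tags. With Abcam76013 and Abcam133638 it was 8.72 and 8.41, from pileups of 63 and 82, although the input is the same. Fold is the pileup over this background, so the spread of the folds includes that difference and is not one of the antibodies alone. The size of its part was not tested. A region of 3 antibodies followed 1014 to 1058 bp downstream of the start (folds of 7.83, 4.87 and 6.47). Beyond it, the gene body held no region of any antibody.

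**Figure D2:**
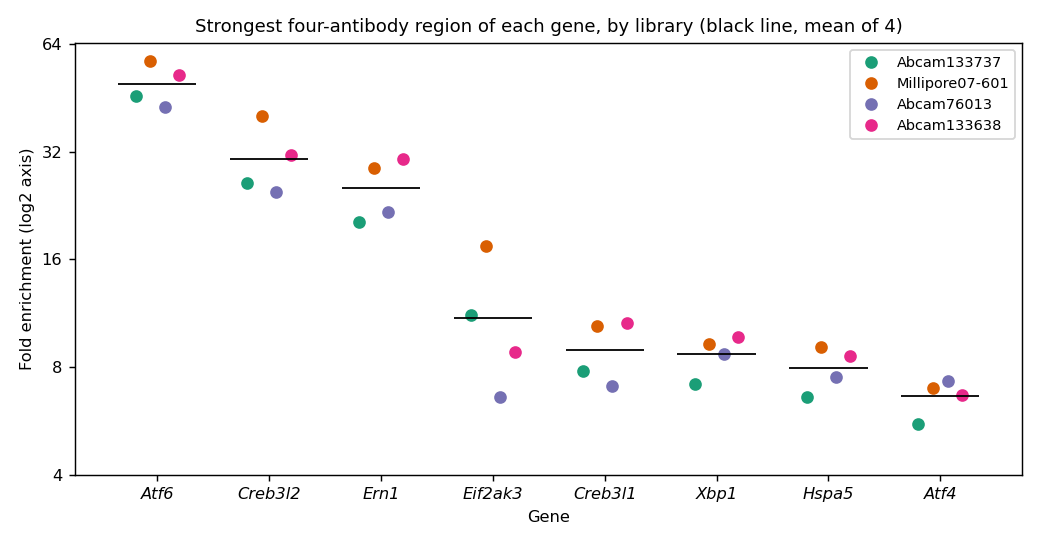
Fold enrichment (log2 axis) of the strongest four-antibody region of 8 genes in each of the 4 libraries, with the mean as a black line. Atf6 is highest in all 4 libraries, and the Eif2ak3 points are the most spread.

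Xbp1 encodes the factor made from the messenger RNA that IRE1 splices. Its 4 four-antibody regions had mean folds of 5.09 to 8.73, and the strongest was not at the gene. It lay 16.2 kb away inside the neighbour Ccdc117 (chr11:5542027-5542480), with folds of 7.20, 9.31, 8.73 and 9.70 in the order used above. A further 2 of the 4 also lay inside Ccdc117. The region at Xbp1 itself (chr11:5520712-5521003) had its summits 155 to 216 bp downstream of the start, with folds of 6.18, 4.02, 4.47 and 7.97. Here Millipore07-601, usually among the highest, was the lowest of the libraries. The region began past the 300-base window, which held a CAAGTG match 206 bases upstream of the start and no peak of any antibody. Per 100 kb, Xbp1 had 8.82 four-antibody regions, the highest of the 9 genes, within a span that is short and includes a neighbour.

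Atf4 encodes the factor whose translation rises when PERK is active. It had 5 regions and 1 with all antibodies (chr15:80254227-80254595), whose summits lay 779 to 822 bp upstream of the start. Its folds of 5.56, 6.98, 7.31 and 6.68 made it the weakest of the 8 best regions. It was the only 1 of these in which Abcam76013 gave the highest value. A region of Millipore07-601 and Abcam76013 (folds of 3.97 and 4.67) lay nearer, with summits 128 and 183 bp upstream, in the promoter window with its CTCAAG match on the opposite strand 107 bases upstream of the start. The peak of Millipore07-601 covered this match, and that of Abcam76013 ended just upstream of it. The other regions stood 3.33 to 8.93 kb beyond the gene, at or near Rps19bp1.

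Creb3l2 encodes an ER-bound factor of the CREB3 family that is cut like ATF6 and is known for its part in collagen secretion by cartilage cells. It had the most regions of the 9 genes, 14 in all and 8 with all antibodies, a number reached by 4.18% of protein-coding genes. That share takes no account of length: the gene is 115 kb long, against a median of 17.3 kb over all genes. Per 100 kb of gene and flanks, Creb3l2 had 5.16 four-antibody regions, fewer than Xbp1 (8.82) and Creb3l1 (7.33), against a median of 1.80 over all genes. The strongest (chr6:37423233-37423842) had folds of 26.1, 40.2, 24.7 and 31.4 from pileups of 131, 197, 126 and 151 tags, and its summits fell within 8 bp. It stood at place 232 of the genome, and 1.28% of genes had a best mean fold as high. The regions lay close together: a four-antibody region with a mean fold of 11.1 followed at 0.538 kb, and another of 8.83 a further 1.12 kb on. Another (chr6:37415016-37415453) lay 8.47 kb away with folds of 13.2, 25.8, 13.4 and 17.9, and beside it, at 0.340 kb, a weak one of 4.45. Millipore07-601 gave the highest fold at all 5 of these regions.

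At the start of Creb3l2 a broad region of 990 bp (chr6:37441661-37442650) had folds of 9.88, 11.6, 8.12 and 13.4. Its best summits lay between 92 and 282 bp upstream of the start. The window held a CTCAAG match 13 bases upstream of the start. The other four-antibody regions of the gene were weaker, with mean folds of 6.98 and 6.79, deep inside the gene at 27.3 and 32.3 kb from its end of lower coordinate. All 8 four-antibody regions thus lay inside or across an end of the gene, and none in the flanks.

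Creb3l1, the closest relative of Creb3l2 on this list and known from bone and from secretory cells, had 6 four-antibody regions among 10, a number reached by 8.56% of genes. The gene is 41.8 kb long, and the count came to 7.33 per 100 kb of gene and flanks. The 6 regions were weak and of similar size, with mean folds of 4.41 to 8.96. The strongest (chr2:92029395-92030115) lay 5.56 kb outside the gene, with folds of 7.82, 10.4, 7.10 and 10.6. Inside the gene the regions had mean folds of 5.36 and 5.39, and at both Abcam133638 gave the highest value (7.76). A stronger region with a mean fold of 14.1 stood 20.4 kb away, just beyond the distance used, while the outermost region within it, at 18.6 kb, had a mean fold of 5.77 and lay inside Dgkz. With 14 and 10 regions, the genes of the CREB3 family held 14 of the 28 four-antibody regions of the list.

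Hspa5 encodes BiP, the main ER chaperone and the classical target of the response. It had 2 regions. The four-antibody region spanned the start (chr2:34771591-34772176), with summits 250 to 297 bp upstream and folds of 6.59 with Abcam133737, 9.10 with Millipore07-601, 7.51 with Abcam76013 and 8.62 with Abcam133638. The exact match of the ER stress response element in the printed promoter begins 65 bases upstream of the start. It lies within the peaks of Millipore07-601, Abcam76013 and Abcam133638, while that of Abcam133737 ended just upstream of it. Inexact copies further upstream were not searched. All 4 summits lay further upstream than the element. A CAAGTG match on the opposite strand lay 31 bases past the start. The second region, of Millipore07-601 alone (fold 4.56), had its summit 359 bp downstream of the start. The next four-antibody region stood 25.8 kb away at a mean fold of 15.1.

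**Figure D3:**
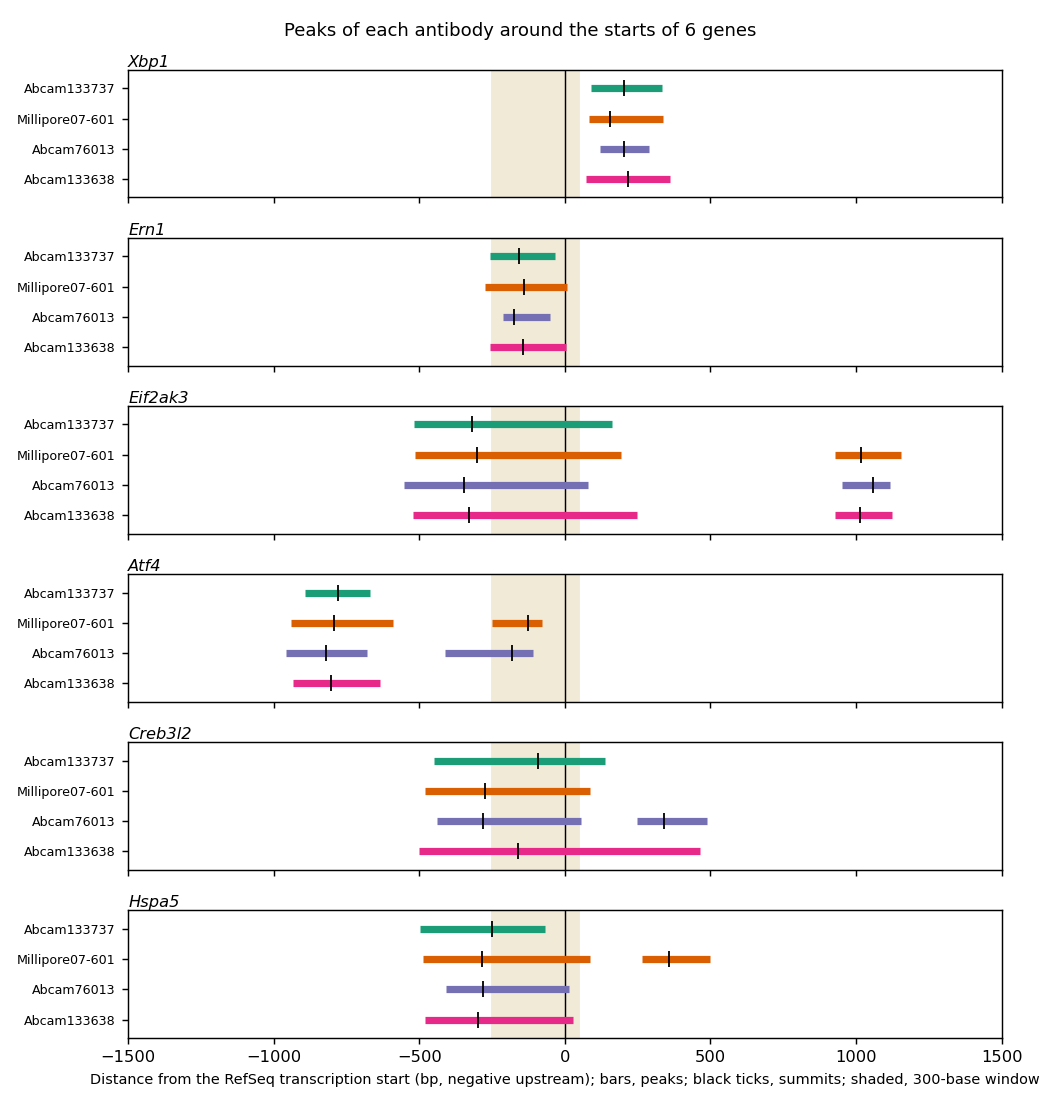
Peaks of each antibody (bars, with summits as black ticks) within 1500 bp of the RefSeq transcription start of 6 genes, by distance from the start in bp. The shaded window is that in which motifs were searched. Peaks of all 4 antibodies overlap it at Ern1, Eif2ak3, Creb3l2 and Hspa5, those of Atf4 lie mostly upstream, and those of Xbp1 downstream.

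Set against all promoters, a four-antibody region overlapped the 300-base window of 4 of the 6 listed genes with a window. The share was 29.4% of 21045 windows of protein-coding genes. Atf6, Ern2 and Creb3l1 had no window, and no four-antibody region spanned an end of these genes, so the share of the listed genes depends on which had a window. The genome share of windows with a CAAGTG match was 13.0% and with CTCAAG 15.0%. In windows overlapped by a four-antibody region these shares were 11.3% and 16.6%, lower for the former motif and higher for the latter. The listed genes had 2 matches of CAAGTG (Hspa5, Xbp1) and 2 of CTCAAG (Creb3l2, Atf4), and none of TGACGTGG or TGATGNAA. Eif2ak3 and Ern1 had no match of any motif. No genome sequence was used outside the promoter windows, so the strong regions inside Atf6, Ern1 and Creb3l2 were not searched.

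By position, 9 of the 28 four-antibody regions (32.1%) lay within 1 kb of an end of a protein-coding gene, against 22.5% in the genome, 16 (57.1%) further inside a gene, against 47.1%, and 3 (10.7%) outside genes, against 30.4%. The rule itself asks for closeness to a gene, so the low share outside genes is partly built in. The higher shares at ends and inside genes are partly built in for the same reason. The strongest regions (Atf6, Creb3l2, Ern1) were all inside gene bodies away from the ends. Where the start is known, the four-antibody region nearest to it had a mean fold of 5.66 (Xbp1) to 11.0 (Eif2ak3).

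The order of the antibodies was set beside that of the genome. The highest fold came from Millipore07-601 at 14 of the 28 regions (50.0%, against 56.4% of all four-antibody regions) and from Abcam133638 at 11 (39.3%, against 39.3%). The median coefficient of variation over the 4 libraries was 23.8%, against 22.5%. Spearman's rho of the fold between libraries was 0.73 to 0.84 over the 28 regions and 0.83 to 0.86 over all four-antibody regions, given as a description, since the libraries share the input and possibly the chromatin. The missing antibody of the 9 regions with 3 was Abcam133737 at 6 and Abcam76013 at 3, against 46.5% and 44.0% of all three-antibody regions. The longer-list antibodies Millipore07-601 and Abcam133638 were missing at 0 of the 9, against 5.04% and 4.37%.

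The wider response was read from 72 further genes in 5 roles, chosen by function. Of these, 68 (94.4%) had a four-antibody region within 20 kb, against 64.8% of protein-coding genes. All 72 had a peak of some antibody, whereas 23.3% of protein-coding genes had none. A region inside a neighbouring gene counts here too. The genes were not matched to the others for gene density or expression, so the higher share cannot be laid to the response itself. Their best mean fold had a median of 9.07, beside the 9.65 of all genes with such a region. Asking for the 10000 strongest peaks of each list left 27 of the 72 genes, still a higher share than the 27.5% of all genes. In the same setting 3 of the 9 listed genes kept a four-antibody region.

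In the group of other sensors, proteases and the CREB3 family, 15 of 15 genes had a four-antibody region, with a median best mean fold of 10.7. The strongest were at Atf6b, the paralog of Atf6 (30.4, but 19.2 kb away and inside Ppt2), and inside the stress kinase gene Map3k5 (29.8, chr10:19956431-19957213). Next came a region of 26.3 that lay 15.2 kb from Eif2ak4, which encodes the amino acid sensor GCN2, but nearer to Srp14 (10.7 kb). Among chaperones and folding enzymes the count was 18 of 18 and the median 8.45. Pdia6, a disulphide isomerase gene, led with 28.0 at a region 5.99 kb away inside Atp6v1c2, followed by regions at the ends of P4hb (16.1) and Calr, the calreticulin gene (14.1).

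Genes of ER-associated degradation, which disposes of misfolded protein, had such a region in 13 of 14 cases with a median of 8.08, led by Edem3 (13.8), Syvn1 (12.9) and Derl2 (12.8). Ube2j1 had none. Genes of translocation and the secretory pathway had one in 10 of 10 cases, with a median of 9.91, led by Srp68 (19.5), Ssr2 (17.1, inside Arhgef2) and Sec31a (12.8). Targets of the ATF4 and CHOP branch had the lowest share, 12 of 15, and the highest median, 11.6. Their strongest regions were beside Ddit3, the CHOP gene (18.6, chr10:127290047-127291482, with its summit inside Mbd6), 3.61 kb from Sesn2 (15.7) and 6.75 kb from Vldlr (15.4). Asns, Cebpg and Slc7a11 had none. Like Ube2j1, they still had 1 to 7 regions of fewer antibodies.

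**Figure D4:**
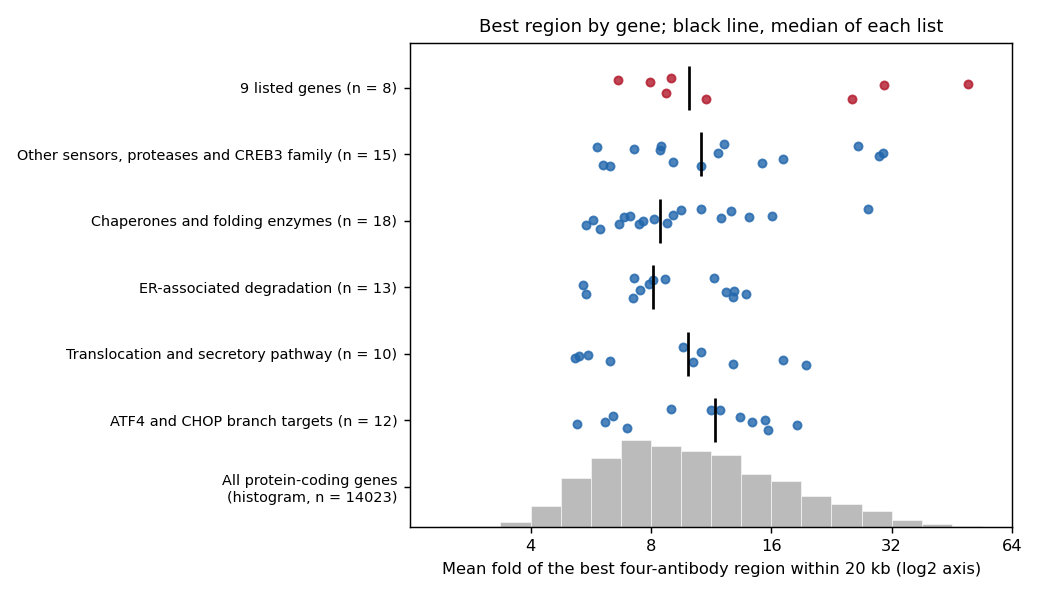
Mean fold of the best four-antibody region within 20 kb (log2 x axis) for the listed genes and for 5 groups of the wider list, 1 point per gene with the median as a black line, above a histogram of all 14023 protein-coding genes with such a region. The medians of the groups, 8.08 to 11.6, lie near the 9.65 of all genes, and Atf6 is the point farthest to the right.

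The promoter element seen at Hspa5 was also present in other genes of the response. The ER stress response element occurred in 30 of the 21045 windows (0.143%), among them Hspa5 and 9 of the 69 windows of the wider list: Calr, Canx, Creld2, Dnajc3, Ero1b, Hsp90b1, Pdia6, Derl3 and Syvn1. A four-antibody region overlapped the window in 7 of those 9, all but Pdia6 and Derl3. Of all 30 windows with the element in the genome, 11 were overlapped, and these include the 7 and that of Hspa5. Among chaperone and folding enzyme genes, 13 of 15 windows were overlapped by a four-antibody region, among them 6 of the 7 with the element. Over the wider list the share was 46 of 69 (66.7%), against the 29.4% of all windows.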

How the data were processed

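Peak tables of 4 NKX2-1 antibody libraries were used. Per the file headers, MACS 2.1.2 compared each library with the same input at a q cutoff of 0.05 with 1 tag kept per position. Build mm10 and the tools Bowtie, Trimmomatic, SAMtools, FastQC and deepTools are named, per the submitters' processing notes, without versions. The deposited columns hold the pileup signal in tags, the fold enrichment (a ratio to local background) and p-values and q-values as −log10, with summit positions. The fold, pileup and q of a peak are the authors' own. Where a list had several peaks in a region, the highest fold was taken. The local background was recovered as pileup plus 1 over fold, minus 1, and called genome-wide within 1% of filtered tags times fragment length over genome size.

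Genes and promoter windows came from RefSeq (GRCm38.p6), in a table without strand or exons, so distances run to gene ends except where a promoter gives the start. All 9 genes and all 72 of the wider list were matched by symbol. Python 3.11.15, pandas 2.3.3 and SciPy 1.17.1 were used, and the scripts were tested on simulated data. The listed genes and lists were chosen with earlier results of these data known. The text names all 9 genes, up to 2 genes on each side of Atf6 in rank (1 stood above), and the 3 strongest genes of each role. Genes without a four-antibody region and those with the ER stress element were named after their values were seen. With 1 library per antibody no test was possible.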

Additional observations from a re-analysis of the deposited data

How the results depend on the processing

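Of 77 values under other settings, 10 moved past the tolerance used (1.5 times for a count or place, the 95% interval for the share of regions, 1 SD over the antibodies for the fold), and smaller shifts were common: the four-antibody regions were 21 with a distance of 2 kb and 39 with 50 kb. With the summit inside the gene only, 16 four-antibody regions at 5 of the 9 genes counted. In that setting 37 of the 72 genes of the wider list had one, a higher share than the 39.3% of all genes. With a fold of at least 5, 13 regions counted, at 8 genes (50.5% of all genes). These were 31.7% of 41 regions, against 42.1% in the genome. With the 10000 strongest peaks of each list there were 6 regions at 3 genes (27.5% of all genes), 60.0% of 10 regions had all 4 antibodies, against 55.4% in the genome, and 27 genes of the wider list had one. At least 3 of 4 antibodies gave 55.2% of regions, against 59.3% in the genome. Ranked by pileup per 1000000 filtered tags, the strongest Atf6 region stood at place 7 in place of 2. Leaving out each antibody in turn gave 28 to 34 regions, 8 to 9 genes (65.1% to 67.3% of all genes), 45.6% to 50.9% of regions (51.8% to 52.8% in the genome), a mean fold of 47.0 to 51.9 at Atf6, places 2 to 3 and 68 to 70 genes of the wider list. Ern2 had a region of all the remaining antibodies without Abcam133737 or without Abcam76013. No paired analysis was possible because each antibody has 1 library. Weak regions have pileups of about 20 tags, and at this depth a missing peak does not show that a region is unbound.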
